A study of Mus musculus with 7 samples.

Results

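The 10 genes described here carry water, sodium, chloride and bicarbonate across the nasal epithelium: the aquaporins *Aqp1*, *Aqp3*, *Aqp4* and *Aqp5*, the sodium channel subunits *Scnn1a*, *Scnn1b* and *Scnn1g*, the chloride channel *Cftr*, the cotransporter *Slc12a2* and the anion exchanger *Slc26a4*. They were chosen by name, as every probe that is not a control and whose transcript accession belongs to one of these symbols. The rule found 12 of the 39429 probes on the array, 2 each for *Aqp4* and *Aqp5* and 1 for each of the others. Of the 10 genes, 9 were among the 20661 genes and transcripts that were bright enough to be tested.

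RNA came from the nasal septum and turbinate tissue of female BALB/c mice, 6 weeks old at the start. Diesel exhaust particles (DEPs) in saline were inhaled from an ultrasonic nebulizer at 100 µg/m3 for 1 hour per day on 5 days per week, and control mice received saline in the same way. Each array held DEP RNA labelled with Cy5 and control RNA labelled with Cy3, and the exposure had lasted 4 weeks for 4 arrays and 8 weeks for 3. The labels call the arrays biological replicates, but the sources used here do not say how many of the 32 mice gave RNA to an array or whether control RNA was pooled, so p-values measure the spread between arrays, which may be partly technical. The dyes were never swapped, and the arrays of each exposure time lay on a slide of their own, so dye and exposure cannot be told apart, and neither can slide and exposure time. Between 16983 and 26924 probes per channel were well above background and no spot was saturated. All 8 listed markers of olfactory neurons, among them *Omp*, were well above background in both channels of all 7 arrays.

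The liquid over the nasal epithelium is set by ion transport, which water follows. Chloride enters the cell from the blood side through the cotransporter NKCC1, the product of *Slc12a2*, and leaves through apical channels such as CFTR. Sodium is taken back through the epithelial sodium channel ENaC, which is built from alpha, beta and gamma subunits encoded by *Scnn1a*, *Scnn1b* and *Scnn1g*. Pendrin, the product of *Slc26a4*, exchanges chloride for bicarbonate at the apical membrane. Aquaporins are the water pores: AQP5 is known for apical membranes of gland acini, AQP4 for basolateral membranes of epithelial and supporting cells, AQP3 for basal cells and AQP1 for vessel walls.

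After 4 weeks, *Aqp4*, *Aqp5*, *Scnn1a* and *Slc26a4* were higher in DEP than in control tissue and *Aqp1* was lower. After 8 weeks, *Scnn1a* and *Aqp3* were lower, and *Aqp1*, *Aqp4* and *Cftr* were higher, of which *Aqp4* changed sign when arrays were centred on their median. These 8-week calls depended on the processing, the test and the arrays used. They were lost in 9 of 15 such alternatives for *Aqp1*, 7 of 15 for *Aqp3* and 3 of 15 for *Scnn1a*. The call of *Aqp4* was lost in 6 of 15 beside its change of sign, and that of *Cftr*, near the background, in 7 of 14. Between the times the log2 ratio fell for *Aqp4*, *Aqp5*, *Scnn1a* and *Slc26a4* and rose for *Aqp1*. All values are log2 ratios of DEP over control from limma, in which 1 stands for a 2-fold higher level, and a gene was called at an adjusted p (Benjamini-Hochberg over all probes tested) of at most 0.05. The RNA is that of a whole tissue, in which fewer cells of a type and less RNA per cell cannot be told apart.

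At 4 weeks 5 of the 9 tested genes were called, 4 higher and 1 lower. Over all genes the same rule called 38.1%, with 21.7% higher and 16.4% lower. At 8 weeks 5 of 9 were called, 3 higher and 2 lower, against 37.3% of all genes, with 20.4% higher and 16.9% lower. With arrays centred on their median in place of loess, 4 were called at 8 weeks, 1 higher and 3 lower. That scaling called 45.5% of all genes, and 27.0% of those calls were higher. The 8-week count fell when single 8-week arrays were left out, and so did the share of all genes called. Limma called 2 genes without replicate 1, *Aqp4* and *Scnn1a*, beside 30.0% of all genes. It called 0 without replicate 2 or replicate 3, beside 21.6% and 27.9% of all genes. There 4 and 4 of the tested genes described had an unadjusted p under 0.05. After loess none of the 9 passed, in limma or in the methods' t-test, a p of at most 0.01 together with a 2-fold change. Of all genes, 0.934% passed upward and 0.368% downward in limma at 4 weeks, and 2.1% and 0.847% at 8 weeks. With the processed signals *Aqp4* was at 1.02 and *Slc26a4* at 1.57 at 4 weeks, both called, so at least *Aqp4* passed there. With those signals 1014 of 20661 genes passed upward and 306 downward at 4 weeks. At an unadjusted p under 0.05 limma found 5 of the 9 at 4 weeks and 6 at 8 weeks, beside 48% and 47.1% of all genes. The median log2 ratio of the 9 genes was 0.07 at 4 weeks and 0.01 at 8 weeks, beside 0.00 and 0.01 for all genes. Nothing is read from 5 of 9 against these shares, and the account that follows is of single genes.

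**Figure D1:**
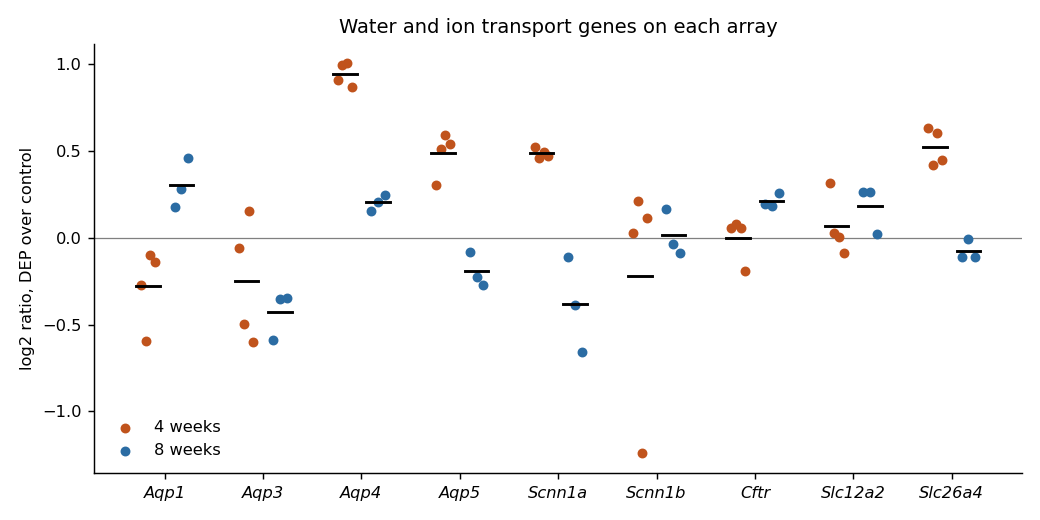
The log2 ratio of DEP over control (vertical axis) is plotted for the 9 tested genes (horizontal axis), with 1 point per array, orange for the 4 arrays of 4 weeks and blue for the 3 arrays of 8 weeks, and a black bar at the mean of each time. *Aqp4* stands highest at 4 weeks with a mean of 0.94, and the points of *Aqp5*, *Scnn1a* and *Slc26a4* lie above 0 on every 4-week array and below 0 on every 8-week array.

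*Aqp4*, the water channel of basolateral membranes, had the largest 4-week ratio of the 9 tested genes, except with the processed signals, where it was 1.02 and *Slc26a4* was at 1.57. Its brighter probe gave log2 ratios of 0.91, 1.00, 1.00 and 0.87 on the 4-week arrays and 0.15, 0.21 and 0.25 on the 8-week arrays. All 7 values were above 0 and the 2 times did not overlap. The mean at 4 weeks was 0.94 ± 0.066 (SD, n = 4), a 1.92-fold higher level (limma, adjusted p = 8.64e-06). At 8 weeks it was 0.20 ± 0.046 (SD, n = 3), with an adjusted p of 0.0195 in limma, and this small difference turned to -0.13 when the arrays were centred on their median. The difference between the times was -0.74 (SE 0.070, limma, adjusted p = 0.000305). The dimmer *Aqp4* probe moved the same way by less, with 0.38 to 0.56 at 4 weeks and -0.03 to 0.27 at 8 weeks. Its means were 0.45 (limma, adjusted p = 0.00123) and 0.11 (adjusted p = 0.269), and its difference was -0.34 (adjusted p = 0.0292).

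The separate channels show where the *Aqp4* ratio moved. Normalized intensities, on a linear scale, were 1250 to 1401 in DEP tissue at 4 weeks and 1301 to 1544 at 8 weeks, so the DEP levels of the times overlapped. In control tissue they were 684 to 705 at 4 weeks and 1159 to 1301 at 8 weeks, with no overlap. On this probe it was the control channel that separated the times. On the dimmer probe both channels did, with DEP levels of 565 to 642 and 672 to 897 and control levels of 385 to 495 and 680 to 745. Control levels of the times were also separate for *Scnn1a* and *Slc26a4*, both higher on the 8-week slide, which makes 3 of the 9 genes. For *Slc26a4* these levels lay near the background, at 91 to 119 and 127 to 150. Its control channel was well above background on 1 of the 4 arrays of 4 weeks. Among all genes 44.4% had separate control levels, 26.9% with all 8-week values higher. Since the 8-week controls lay on the other slide, time, age and slide cannot be told apart in these levels.

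*Aqp5*, the apical water channel of gland acini, rose at 4 weeks. Its brighter probe gave 0.30, 0.51, 0.59 and 0.54 at 4 weeks and -0.08, -0.22 and -0.27 at 8 weeks, so that no 8-week value reached the 4-week range. The mean was 0.49 ± 0.13 (SD, n = 4) at 4 weeks, or 1.40-fold (limma, adjusted p = 0.000852). At 8 weeks the mean was -0.19 ± 0.099 (SD, n = 3) and did not pass (limma, adjusted p = 0.0671), though it did in 4 of 15 alternatives and was -0.43 with median centring (adjusted p = 0.00551). The difference of -0.68 (SE 0.093) did (limma, adjusted p = 0.00172). The dimmer *Aqp5* probe gave 0.36 at 4 weeks (adjusted p = 0.00422) and -0.26 at 8 weeks (limma, adjusted p = 0.0278), so the 2 probes had the same signs and differed in the call at 8 weeks.

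For *Aqp5* it was the DEP channel that separated the times. Normalized DEP intensities were 7495 to 9098 at 4 weeks and 5128 to 5729 at 8 weeks. Control intensities were 5996 to 6268 and 6063 to 6196 and overlapped. Of all genes, 46.3% had DEP levels that did not overlap between the times, and for 20.8% of all genes the 8-week levels were the lower ones, as they were for *Aqp5* and *Scnn1a*.

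**Figure D2:**
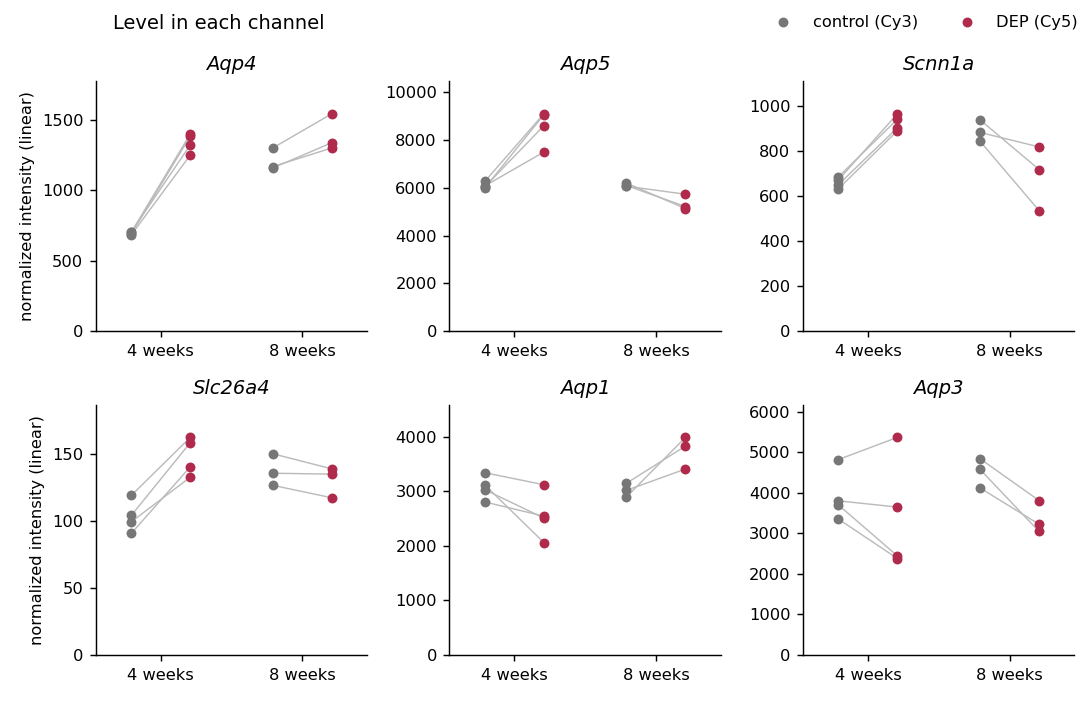
Normalized intensity (linear vertical axes from 0, loess within arrays and quantile scaling between them) is shown for 6 genes in the control channel (grey) and the DEP channel (red), with 1 point per array and a line joining the channels of an array. The control level of *Aqp4* moves from 684 to 705 at 4 weeks to 1159 to 1301 at 8 weeks, while for *Aqp5* the DEP level moves and the control level stays between 5996 and 6268.

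*Aqp1*, the water channel of vessel walls, ran the other way. Its log2 ratios were -0.27, -0.60, -0.10 and -0.14 at 4 weeks and 0.18, 0.28 and 0.46 at 8 weeks. Every 4-week value was below 0 and every 8-week value above it. The means were -0.28 ± 0.23 (SD, n = 4, limma, adjusted p = 0.0420) and 0.31 ± 0.14 (SD, n = 3, limma, adjusted p = 0.0491), both close to the threshold and lost in 10 and 9 of 15 alternatives. The 4-week call of *Aqp1* was lost without replicate 1, 2 or 4 of 4 weeks and without replicate 1 or 2 of 8 weeks, with adjusted p between 0.0512 and 0.131. The difference between the times was 0.58 (SE 0.13, limma, adjusted p = 0.0153), and it rose to an adjusted p of 0.0532 without replicate 2 and 0.0580 without replicate 3 of 8 weeks. Normalized DEP intensities were 2060 to 3121 at 4 weeks and 3408 to 3989 at 8 weeks, while control intensities overlapped at 2804 to 3340 and 2897 to 3147. Centred on the array median, the 8-week ratio of *Aqp1* was 0.02.

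*Aqp3*, the water and glycerol channel of basal cells, varied most of the 4 aquaporins described at 4 weeks, with -0.06, -0.50, 0.15 and -0.60 on the 4 arrays. The mean of -0.25 ± 0.36 (SD, n = 4) did not pass (limma, adjusted p = 0.148). At 8 weeks all 3 arrays were below 0, at -0.59, -0.35 and -0.35, with a mean of -0.43 (limma, adjusted p = 0.0483), or 1.35-fold lower, and -0.70 with median centring. This 8-week call was close to the threshold and lost in 7 of 15 alternatives. With single arrays left out its adjusted p in limma reached 0.197. The difference of -0.18 did not pass (adjusted p = 0.504), with a 95% interval of -0.62 to 0.26, and the times overlapped.

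Of the sodium channel subunits, *Scnn1a* changed. The alpha subunit gave 0.52, 0.46, 0.49 and 0.47 at 4 weeks, the tightest set of values among the 9 genes, and -0.11, -0.39 and -0.66 at 8 weeks. The means were 0.49 ± 0.029 (SD, n = 4, limma, adjusted p = 0.00290), or 1.40-fold higher, and -0.38 ± 0.27 (SD, n = 3, limma, adjusted p = 0.0148), or 1.30-fold lower. The difference between the times was -0.87 (SE 0.12, limma, adjusted p = 0.00191). Both channels were separate between the times: DEP intensities were 891 to 966 at 4 weeks and 536 to 819 at 8 weeks, and control intensities 633 to 686 and 844 to 939. The 8-week call rested on replicates 2 and 3, without which the adjusted p was 0.0744 and 0.0601, and its mean was -0.70 with median centring.

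*Scnn1b*, the beta subunit, was dim. It gave 0.03, 0.21, -1.24 and 0.11 at 4 weeks and 0.17, -0.03 and -0.09 at 8 weeks, with means of -0.22 (limma, adjusted p = 0.452) and 0.01 (adjusted p = 0.975). A single control spot on replicate 3 of 4 weeks, with a median signal of 346 against 89 to 121 on the other 4-week arrays, set the sign of the mean, which was 0.12 without that array. *Scnn1g*, the gamma subunit, was not well above background in either channel of any array and was not tested. Whether the beta and gamma subunits moved with the alpha subunit was thus not detectable on these arrays.

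**Figure D3:**
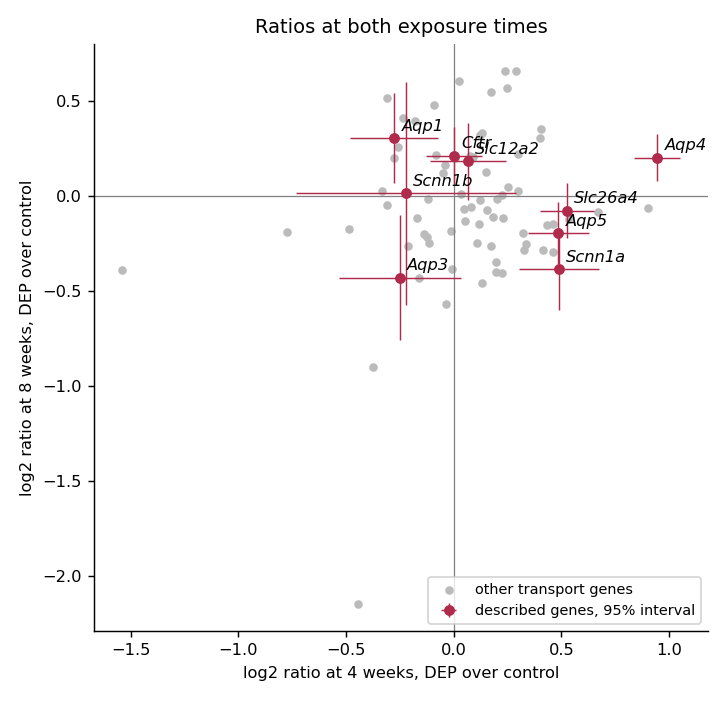
Each tested gene is placed by its log2 ratio of DEP over control at 4 weeks (horizontal axis) and at 8 weeks (vertical axis), in red with 95% intervals from limma for the 9 genes described and in grey for 69 other transport genes. *Aqp5*, *Scnn1a* and *Slc26a4* lie together near 0.5 at 4 weeks and below 0 at 8 weeks, *Aqp1* lies on the other side of both axes, and the mark of *Aqp4* at 8 weeks drops below 0 when arrays are centred on their median.

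Among the anion transporters, *Slc26a4* rose at 4 weeks. Its log2 ratios were 0.63, 0.42, 0.61 and 0.45 at 4 weeks and -0.11, -0.01 and -0.11 at 8 weeks. The 4-week mean was 0.53 ± 0.11 (SD, n = 4, limma, adjusted p = 0.000317) and the 8-week mean was -0.08 (limma, adjusted p = 0.378). The difference between the times was -0.60 (SE 0.082, limma, adjusted p = 0.00166). The study drew its list of changed genes from these same arrays, at a p of at most 0.01 and a 2-fold change. That list is thus not independent evidence for the direction of any gene described here. The probe was dim, well above background on all 4 DEP channels but on 1 of the 4 control channels at 4 weeks, and the offset added in background correction shrinks such ratios. With the processed signals of the scanner software the 4-week ratio of *Slc26a4* was 1.57 and the difference between the times -1.87, and the 4-week ratio was 0.43 when all spots entered the background fit.

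*Cftr* was near the background. Its control channel was well above background on none of the 4-week arrays and on 1 of the 3 arrays of 8 weeks, and its DEP channel on 2 of 4 and on 3 of 3, so that no fold is given. Its log2 ratios were 0.06, 0.08, 0.06 and -0.19 at 4 weeks (limma, adjusted p = 0.986) and 0.20, 0.18 and 0.26 at 8 weeks (limma, adjusted p = 0.0369). The 8-week call was lost in 7 of 14 alternatives, and the 8-week ratio was 0.76 with the processed signals.

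*Slc12a2*, the bright cotransporter that loads the cell with chloride, did not pass at either time. Its values were 0.32, 0.03, 0.01 and -0.09 at 4 weeks and 0.26, 0.26 and 0.02 at 8 weeks. The means were 0.07 (limma, adjusted p = 0.523) with a 95% interval of -0.11 to 0.24, and 0.18 (limma, adjusted p = 0.142) with an interval of -0.02 to 0.39. Both means turned below 0 when the arrays were centred on their median, at -0.03 and -0.08.

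In all, 5 of the 9 genes differed between the times, 1 with a higher and 4 with a lower ratio at 8 weeks, where 31% of all genes did, 14.8% higher and 16.1% lower. The log2 ratios of the times did not overlap for 6 genes, the 5 called and *Cftr*, against 42.2% of all genes. A sign that was the same on every 4-week array and the opposite on every 8-week array was found for *Aqp1*, *Aqp5*, *Scnn1a* and *Slc26a4*, 4 of 9 genes, against 13.7% of all genes. For *Slc26a4* the 95% interval of the 8-week mean, -0.22 to 0.07, included 0.

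**Figure D4:**
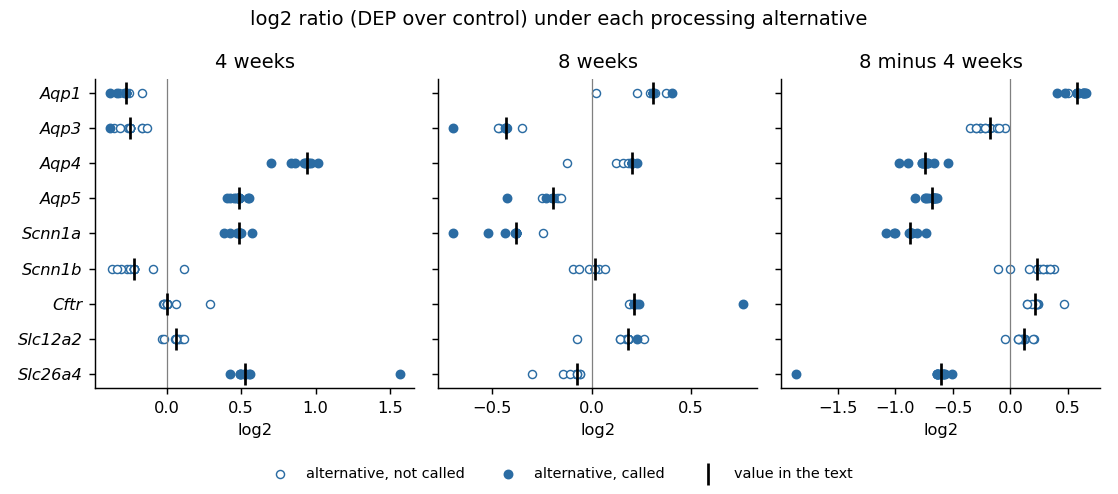
For each of the 9 genes (rows) the log2 ratio of DEP over control is drawn at 4 weeks, at 8 weeks and as the difference between the times (panels, horizontal axes), with a black tick for the value given in the text and a circle for each processing alternative, filled where it was called. At 4 weeks *Aqp4*, *Aqp5*, *Scnn1a* and *Slc26a4* are filled throughout, and *Slc26a4* reaches 1.57 with the processed signals. At 8 weeks each gene has at least 1 open circle, and *Aqp4* and *Slc12a2* have one each below 0, from centring on the median.

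Promoter sequence is shown for *Aqp5* and *Slc26a4*, which rose at 4 weeks and fell relative to it at 8 weeks, and for *Aqp1*, which ran the other way. Promoters of 7 of the 10 genes were taken from the RefSeq table of the GRCm38.p6 build, in a search that left out a chromosome. *Aqp4*, *Scnn1a* and *Slc12a2* are not among them. Each line gives the 250 bases before the annotated start, 5′ to 3′ on the strand of the gene. The 3 windows are chr15:99590778-99591027 on the plus strand for *Aqp5*, chr12:31559985-31560234 on the minus strand for *Slc26a4* and chr6:55336049-55336298 on the plus strand for *Aqp1*. Capitals mark matches on either strand to 5 motifs: GCGTG, the core bound by the dioxin receptor AhR, TGACNNNGC, the core of the antioxidant response element, CACGTG, the E-box, TATAAA, the TATA box, and TGTTTAC, a core bound by forkhead factors such as FOXI1.
Aqp5: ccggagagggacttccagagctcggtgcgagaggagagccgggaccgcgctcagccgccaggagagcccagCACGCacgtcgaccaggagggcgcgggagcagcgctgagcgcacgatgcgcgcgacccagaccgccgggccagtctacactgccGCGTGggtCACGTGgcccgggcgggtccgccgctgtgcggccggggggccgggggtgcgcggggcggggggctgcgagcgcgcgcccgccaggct
Slc26a4: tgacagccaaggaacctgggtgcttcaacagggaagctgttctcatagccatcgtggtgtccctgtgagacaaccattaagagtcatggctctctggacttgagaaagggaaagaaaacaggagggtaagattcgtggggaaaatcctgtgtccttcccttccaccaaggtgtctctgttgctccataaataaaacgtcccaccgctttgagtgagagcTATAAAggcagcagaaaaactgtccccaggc
Aqp1: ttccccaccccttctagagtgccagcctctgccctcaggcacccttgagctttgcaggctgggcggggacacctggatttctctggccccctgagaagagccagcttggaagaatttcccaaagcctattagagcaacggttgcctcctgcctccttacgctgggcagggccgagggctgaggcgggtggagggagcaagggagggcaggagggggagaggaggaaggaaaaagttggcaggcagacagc
The *Aqp5* window holds GCGTG at 2 places, once on each strand, and a CACGTG, with no overlap among them, and its GC content is 78.4%. The *Slc26a4* window holds a TATAAA that starts 31 bases before the start site, with a GC content of 49.6%. The *Aqp1* window holds none of the 5 motifs and has a GC content of 62.0%. Among all 32851 promoters of this length 28.2% held GCGTG, 10.2% TGACNNNGC, 6.02% CACGTG, 12.4% TATAAA and 3.17% TGTTTAC. Of the 7 genes whose promoter was taken, 2 held GCGTG (*Aqp5* and *Cftr*), 2 TATAAA (*Slc26a4* and *Aqp3*), 1 CACGTG and none the other motifs. A match of letters is a description and not a bound site, and no match says only that these letters are not in the window.

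Other genes of water and ion transport were taken from 6 lists of 79 genes, of which 69 were tested. At 4 weeks 18 were higher and 10 lower, together 40.6%, and at 8 weeks 16 were higher and 17 lower, 47.8%, beside the shares of 38.1% and 37.3% for all genes. The split depended on the scaling: with median centring it was 11 higher and 13 lower at 4 weeks and 7 higher and 32 lower at 8 weeks, and with the processed signals 30 higher and 8 lower at 4 weeks. The split over all genes moved too. Of their calls, 42.7% at 4 weeks and 27.0% at 8 weeks were higher with median centring, and 67.9% at 4 weeks with the processed signals. These scalings called 36.6%, 45.5% and 45.4% of all genes. Of the genes called, 0 of 28 at 4 weeks and 2 of 33 at 8 weeks, *Slc4a2* and *Car4*, changed sign under one of these scalings. Without replicate 2 of 8 weeks the count at 8 weeks was 16, where 21.6% of all genes were called. The median log2 ratio of the 69 genes was 0.11 at 4 weeks and -0.07 at 8 weeks.

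Of 5 other aquaporins tested, *Aqp8* fell at both times. *Aqp8*, a pore for water and hydrogen peroxide, was at -0.44 (limma, adjusted p = 0.00264) and -2.15 (limma, adjusted p = 2.69e-06), lower on all 7 arrays. *Aqp11*, an intracellular aquaporin, was at -0.90 at 8 weeks (limma, adjusted p = 0.0329), and *Aqp2*, the vasopressin-regulated channel of the kidney, at 0.20 at 4 weeks (adjusted p = 0.0309), where median centring gave 0.16 (adjusted p = 0.121) and the processed signals 0.56. *Aqp6* and *Aqp7* did not pass at either time after loess. The control channel of *Aqp6* was well above background on no array. With the processed signals *Aqp6* was at -0.91 and 1.29 at 4 and 8 weeks (limma, adjusted p = 0.0285 and 0.0160). Median centring put it at 0.25 at 8 weeks (limma, adjusted p = 0.0235).

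Among 15 tested chloride and bicarbonate genes, 6 were higher and 1 lower at 4 weeks, and 5 higher and 4 lower at 8 weeks. *Clcn2*, a chloride channel, was at 0.67 (limma, adjusted p = 3.47e-05) and *Clic6*, an intracellular chloride channel protein, at 0.46 (adjusted p = 0.000201) at 4 weeks. At 8 weeks *Ano1*, the calcium-activated chloride channel, was at 0.66 (limma, adjusted p = 0.000917) and *Car12*, a membrane carbonic anhydrase, at 0.57 (adjusted p = 0.000151). *Ttyh1* was lower at both times, at -0.16 and -0.43 (limma, adjusted p = 0.0384 and 0.00103), and *Slc4a4*, the sodium bicarbonate cotransporter, was at -0.40 at 8 weeks (adjusted p = 0.0063). With median centring *Ano1* and *Car12* were at 0.34 and 0.24 at 8 weeks and *Ttyh1* at -0.24 and -0.68 at 4 and 8 weeks. With the processed signals *Clcn2* was at 1.13 and the 4-week call of *Ttyh1* was lost (limma, adjusted p = 0.0839).

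Of 10 tested genes of sodium and proton cotransport, 2 were higher and 2 lower at 4 weeks, and 1 higher and 4 lower at 8 weeks. At 4 weeks the potassium chloride cotransporter *Slc12a7* was at 0.32, while *Slc12a4*, of the same family, was at -0.31 (limma, adjusted p = 0.00279 and 0.00309). *Slc6a14*, an amino acid carrier driven by sodium and chloride, was lowest at -0.78 (limma, adjusted p = 3.02e-05). At 8 weeks *Slc9a3r1*, the scaffold protein NHERF1 that binds CFTR, was at -0.57 (limma, adjusted p = 0.0204), the sodium proton exchanger *Slc9a3* at -0.25 (adjusted p = 0.0366) and the proton pump *Atp12a* at 0.21 (adjusted p = 0.0142). With the processed signals *Slc9a3* was at -0.96 and *Atp12a* at 1.13, the latter without a call (limma, adjusted p = 0.118). The *Atp12a* probe was dim, well above background on 3 of the 7 arrays in the DEP channel and on 1 in the control channel.

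The sodium pump and potassium channels set the driving force for both secretion and absorption. Of 15 tested, 4 were higher and 4 lower at 4 weeks, and 6 higher and 4 lower at 8 weeks. The pump subunit *Atp1b1* was at 0.53 and the potassium channel *Kcnma1* at 0.42 at 4 weeks, while *Atp1b3* was at -0.31 and *Fxyd4* at -0.28 (limma, adjusted p = 0.00073, 0.000651, 0.0102 and 0.0360). At 8 weeks the pump gene *Fxyd2* was at 0.60, and *Atp1b2* and the potassium channel *Kcnn4* were at -0.46 and -0.39 (limma, adjusted p = 0.00179, 0.00723 and 0.0466). With median centring *Fxyd2* was at 0.31 (adjusted p = 0.052 in limma), *Atp1b2* at -0.73 and *Kcnn4* at -0.66, and with the processed signals *Fxyd4* was at -0.19 at 4 weeks (adjusted p = 0.0599).

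Of 12 tested regulators of the sodium channel 1 was higher and 1 lower at each time. *Usp2*, a deubiquitinase known to act on ENaC, was at 0.90 at 4 weeks (limma, adjusted p = 9.82e-05) and -0.06 at 8 weeks (adjusted p = 0.599). *Sgk1*, the aldosterone-induced kinase that keeps ENaC at the membrane, was at -0.09 at 4 weeks (limma, adjusted p = 0.471) and 0.48 at 8 weeks (adjusted p = 0.0129), where median centring gave 0.16 (adjusted p = 0.339). *Spint1*, an inhibitor of the proteases that cleave the channel, was at -0.21 and -0.26 (limma, adjusted p = 0.00545 and 0.00392), and at -0.33 and -0.59 with median centring.

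Of 12 genes of cAMP, purinergic and WNK signalling, 4 were higher and 1 lower at 4 weeks, and 3 higher and 2 lower at 8 weeks. At 4 weeks *Ezr*, the linker ezrin, was at 0.25, and *Chrm3*, the muscarinic receptor of gland secretion, at -0.33 (limma, adjusted p = 0.00493 and 0.00416). At 8 weeks the kinases *Stk39* and *Wnk1*, which act on NKCC1, were at 0.55 and 0.33 (limma, adjusted p = 0.00169 and 0.0133), while the purinergic receptor *P2ry2* was at -0.40 (adjusted p = 0.00206) and the phosphodiesterase *Pde4d* at -0.26 (adjusted p = 0.0285). With median centring *Wnk1* was at 0.0037 (adjusted p = 0.976 in limma), *Stk39* at 0.24 and *Ezr* at 0.14 (adjusted p = 0.104), and with the processed signals *P2ry2* was at -0.62 and *Chrm3* lost its call (adjusted p = 0.106).

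Some marker lists of cell types moved with genes described and others did not, and their part in the results was not tested. Of 8 olfactory neuron markers 6 were higher at 4 weeks and all 8 lower at 8 weeks, with medians of 0.44 and -0.58, and their summed level was 148143 to 163007 in DEP and 81512 to 96663 in control tissue at 4 weeks, against 96373 to 101090 and 134571 to 151093 at 8 weeks. Of 7 sustentacular (supporting) cell markers 5 were higher and 1 lower at 4 weeks, and 1 higher and 5 lower at 8 weeks, with medians of 0.32 and -0.42. *Aqp4*, *Aqp5*, *Scnn1a* and *Slc26a4* were all higher at 4 weeks. By the brightest probe of each, *Scnn1a* alone was called lower at 8 weeks after loess with all arrays. *Aqp5* was too in 4 of 15 alternatives, median centring among them. The dimmer *Aqp5* probe was called lower after loess, at -0.26 (limma, adjusted p = 0.0278). The summed sustentacular level was 25465 to 34949 in DEP and 21252 to 28375 in control tissue at 4 weeks, and 43593 to 52070 and 59120 to 67778 at 8 weeks, so both channels were higher on the 8-week slide. Under median centring 4 of the 8 neuron markers were called higher at 4 weeks and 8 lower at 8 weeks.

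Gland markers are set beside *Aqp5*, which acinar cells express. Of 9, 4 were higher and 4 lower at 4 weeks and 5 higher and 2 lower at 8 weeks, with medians of 0.13 and 0.20. They did not share a direction: *Lpo*, the lactoperoxidase of nasal glands, was at 2.98 at 4 weeks and *Dcpp1*, a salivary gland protein, at -0.51. At 8 weeks *Pigr*, the receptor that carries antibodies into secretions, was at 1.64, and *Dcpp1* was lowest of the list (limma, adjusted p = 1.27e-06). The summed level was 80292 to 90987 in DEP and 62214 to 66558 in control tissue at 4 weeks, and 67598 to 81418 against 55071 to 58218 at 8 weeks.

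Beside *Aqp1*, 9 endothelial markers had medians of -0.05 at 4 weeks (1 higher, 3 lower) and 0.04 at 8 weeks (1 higher, 0 lower, and 0 higher and 3 lower with median centring), with summed levels of 5925 to 6630 in DEP and 5384 to 5805 in control tissue at 4 weeks, and 5779 to 8060 and 5668 to 5871 at 8 weeks. Erythrocytes also carry AQP1, and of 8 red cell markers 3 were tested, all higher at 4 weeks. At 8 weeks *Hemgn* was higher, and *Alas2* and *Slc4a1* were lower, at -0.32 and -0.82 (-0.55 for *Alas2* with median centring and -1.26 for *Slc4a1* with the processed signals), while *Aqp1* was at 0.31. Beside *Aqp3*, 7 basal cell markers had medians of 0.16 and 0.40, with 3 higher and 1 lower at 4 weeks and 6 higher at 8 weeks, when *Aqp3* was at -0.43. With median centring 2 of the basal cell markers were higher and 2 lower at 4 weeks, and 4 were higher at 8 weeks. Their summed level at 8 weeks was 29895 to 33118 in DEP and 24699 to 27158 in control tissue.

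Ionocytes, rare cells rich in CFTR and in proton pumps, are set beside *Cftr* and *Slc26a4*. Their defining factor *Foxi1* was at 0.14 and 0.14 (limma, adjusted p = 0.201 and 0.294). Of 10 ionocyte markers 4 were higher and 2 lower at 4 weeks, and 2 higher and 1 lower at 8 weeks, with medians of 0.08 and -0.05, while median centring gave 0 higher and 4 lower at 8 weeks. *Ascl3*, a factor of ionocytes and of gland ducts, was at 0.63 at 4 weeks (limma, adjusted p = 0.00214) and -0.15 at 8 weeks (adjusted p = 0.351). The summed ionocyte level was 2157 to 2576 in DEP and 1949 to 2273 in control tissue at 4 weeks, and 2692 to 3030 and 2749 to 2768 at 8 weeks. Ciliated cell markers, 8 in number, had 5 higher at 4 weeks and 3 higher at 8 weeks, and of 8 ensheathing glia markers 2 were higher and 1 lower at each time. With median centring the 8-week calls were 1 higher and 3 lower in the ciliated list and 1 higher and 4 lower in the glia list, and the processed signals gave 2 higher and 3 lower in the latter.

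**Figure D5:**
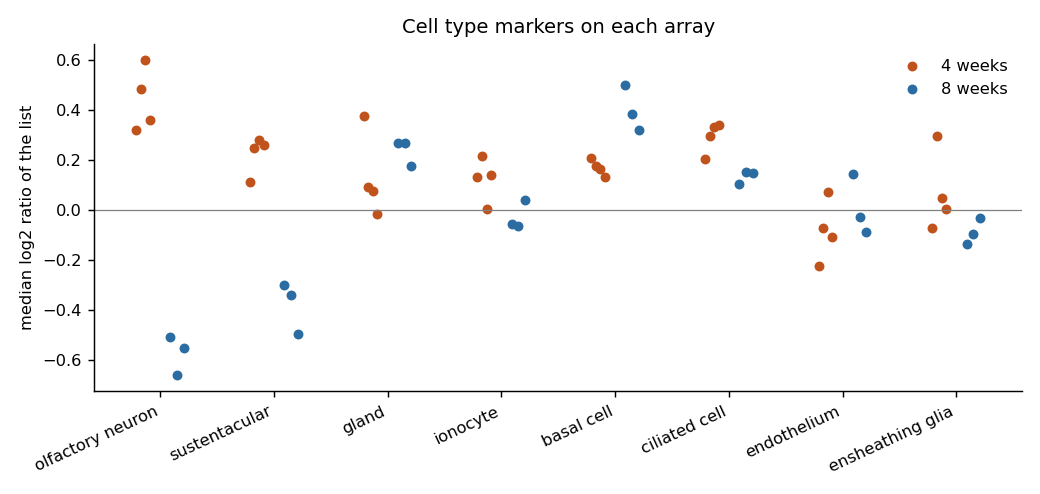
The median log2 ratio of DEP over control (vertical axis) of each cell type's marker list (horizontal axis) is drawn for every array, orange at 4 weeks and blue at 8 weeks. The olfactory neuron medians lie between 0.32 and 0.60 on the 4-week arrays and between -0.66 and -0.51 on the 8-week arrays, and the sustentacular medians change sign in the same way, while endothelial medians lie on both sides of 0 at each time.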

How the data were processed

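Nasal tissue RNA was measured on 7 Agilent 2-colour arrays (4x44K). The authors deposited the output of Feature Extraction 10.10.1.1 for each array. Its median signals and backgrounds are intensity values without normalization, its processed signals are intensity values after subtraction of background and scaling of the dyes by that software, and the deposited ratio is the log10 of processed Cy5 over Cy3, which was not used. The GeneSpring normalization of the study was not repeated. Groups came from the sample titles.

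With limma 3.58.1 in R 4.3.3, median signals were background-corrected by normexp (offset 50), fitted without spots marked as background outliers, and loess was applied to the log2 ratios of each array. Repeated spots of the 43020 that are not controls were averaged and non-uniform spots left out. Probes had to be well above background on 3 or more arrays, in one or the other channel, and the 25156 that were entered 1 fit with a mean per exposure time, with Benjamini-Hochberg adjustment over all of them. A gene has the value of its brightest tested probe. Through RefSeq accessions of GRCm38.p6, 28330 probes were named. Levels are channel intensities after loess and quantile scaling of the average intensity. Replicate numbers are shared between the times, but deviations of same-numbered arrays correlated at -0.01, -0.01 and 0.02, so they do not pair arrays. On 15179 simulated probes the fit recovered 99.5% of 196 changed probes at 4 weeks with 6 false calls, and 98.9% of 94 for the difference with 2. The planted changes were at least 2-fold, lay on bright probes and had less spread than the arrays. This setting says nothing of smaller changes, of dim probes or of false calls when many genes change.

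The genes and lists were chosen with earlier results of these data known. The genes named are the 10 described, in each transport list the 2 highest and 2 lowest called log2 ratios at each time, markers beside the genes they are set against, and the 3 genes most like *Aqp4*. Some genes that this rule names are not reported here. *Aqp6*, *Aqp7*, *Slc4a2*, *Car4* and *Sgk1* at 4 weeks were named after their values were seen. Alternatives were the background fit, the processed signals, median centring, the filter, the mean over probes, single times, a replicate block, the methods' t-test and leaving out each array. The number of arrays limits the precision.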

Additional observations from a re-analysis of the deposited data

Results flagged for a closer look

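Differences between the exposure times that passed limma's test of the difference itself, in 8 weeks minus 4 weeks on the log2 scale, were 0.58 for *Aqp1*, -0.74 for *Aqp4*, -0.68 for *Aqp5*, -0.87 for *Scnn1a* and -0.60 for *Slc26a4*. The slide divides the arrays as the time does, and its part cannot be told apart.

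A single array lay far from the other 3 of its group for 2 of the 9 genes at 4 weeks. *Cftr* was at -0.19 on replicate 4, where neither channel was well above background, and *Scnn1b* was at -1.24 on replicate 3, where the control spot was bright. By chance about 1 in 20 such groups is expected to show an array this far out.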

How the results depend on the processing

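The 4-week calls of *Aqp4*, *Aqp5*, *Scnn1a* and *Slc26a4* and their differences between the times held under every alternative that tested them. Over the alternatives, of 387 values of the 9 genes, 321 kept direction and call, 44 lost the call, 6 gained it and 16 changed sign. The 5 described genes called at 8 weeks became 2 with normexp fitted on all spots, 2 with no filter on dim probes and 1 with the methods' t-test. Of all genes that each setting tested, 33.1%, 21.1% and 23.3% were called at 8 weeks, in place of 37.3%. Transport genes called with the methods' t-test were 16 at 4 weeks and 20 at 8 weeks, where that test called 21.1% and 23.3% of all genes. Leaving out single arrays gave 4 to 6 described genes called at 4 weeks, 0 to 4 at 8 weeks and 4 to 5 between the times, and 21 to 30 and 16 to 34 transport genes. Over all genes the same fits called 27.4% to 38.3% at 4 weeks, 21.6% to 41.3% at 8 weeks and 18.7% to 33.2% between the times.

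Median centring turned *Aqp4* at 8 weeks to -0.13, *Cftr* at 4 weeks to -0.0059, *Scnn1b* at 8 weeks to -0.012, and *Slc12a2* to -0.031 at 4 weeks, -0.077 at 8 weeks and -0.046 for the difference. It moved the median of all genes to -0.04 at 4 weeks and -0.11 at 8 weeks and the share of higher calls from 56.9% to 42.7% and from 54.6% to 27.0%. Processed signals put *Scnn1b* at -0.093 at 8 weeks and -0.0015 for the difference, with 67.9% of the 4-week calls higher, and normexp on all spots put *Cftr* at -0.017 at 4 weeks. It called 24.4% of all genes at 4 weeks in place of 38.1%. With single arrays left out, *Cftr* at 4 weeks ranged from -0.025 to 0.065, *Scnn1b* from -0.37 to 0.12 at 4 weeks, -0.062 to 0.067 at 8 weeks and -0.10 to 0.38 for the difference, and *Slc12a2* from -0.019 to 0.12 at 4 weeks. The causes were not tested.

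The replicate number as a block left 5 described genes called between the times, while 1508 genes were higher and 1706 lower over the whole array, in place of 3066 and 3329. Of 450 medians of the lists, 60 moved by more than the spread between arrays. Dim probes limit *Cftr*, *Scnn1b*, *Scnn1g* and *Slc26a4*.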

Other observations

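The genes whose log2 ratios over the 7 arrays ran most like those of *Aqp4*, among 20379 genes, were *Epas1*, a hypoxia-inducible factor, *Gnpat*, an enzyme of ether lipid synthesis, and *Gusb*, a lysosomal glucuronidase, each with a Pearson r of 0.998. This is a description over arrays that fall into 2 sets by time. The size and sign differed: at 4 and 8 weeks *Epas1* was at 0.90 and -0.39, *Gnpat* at -0.04 and -0.71 and *Gusb* at 0.16 and -0.30, against 0.94 and 0.20 for *Aqp4*.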
